A study of Mus musculus with 4 samples.

Results

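Fabp6-high ileal enterocytes were the absorptive cells of the postnatal day 6 (P6) mouse ileum in which Fabp6 made up the largest share of the RNA. They were chosen within each ileal library from cells with 1000 to 6000 genes, at least 2000 UMIs (unique molecular identifiers, each marking 1 captured RNA molecule) and a mitochondrial share under 20%, which had at least 3 of the 6 enterocyte genes Fabp1, Fabp2, Apoa1, Apoa4, Alpi and Lct and fewer than 2 of the 5 cycling genes Mki67, Top2a, Ube2c, Cdk1 and Birc5. The 10% of these enterocytes with the highest Fabp6 share were taken. That gave 1417 Fabp6-high cells, 658 in replicate 1 and 759 in replicate 2, out of 14187 ileal enterocytes kept and 36202 called cells in the series. They were compared with 4157 enterocytes of the same libraries, 2425 and 1732, that had at least 10000 UMIs and none from Fabp6 (Fabp6-0 cells).

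The series held 4 single-cell libraries of wild-type epithelium, 1 of jejunum and 1 of ileum from each of 2 mice at P6, with no treatment named. The wild-type line of the study was C57BL/6J, and the cells were those released by EDTA and dispase. The ileal libraries held 131400239 and 125067265 UMIs. Replicate 1 was labelled male and batch 1, replicate 2 female and batch 2, so mouse, labelled sex and batch cannot be told apart. Xist, which is expressed from the inactive X chromosome, stood at 537 CPM (UMIs of a gene scaled to a common total) in the ileal library labelled male and 0.712 CPM in that labelled female, and the Y-linked Eif2s3y at 0.0228 and 89.1 CPM, against the labels. The jejunal libraries showed the same mismatch, so no result below uses sex.

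Fabp6 encodes the ileal bile acid binding protein, a small cytosolic carrier of the fatty acid binding protein family. In the adult ileum, bile acids enter enterocytes through the apical sodium-dependent transporter Slc10a2, are carried by Fabp6 and leave across the basolateral membrane through the Slc51a and Slc51b heterodimer, while the nuclear receptor Nr1h4 (FXR) senses them and induces the hormone Fgf15. FXR, paired with a retinoid X receptor, typically binds an inverted repeat of the AGGTCA type with 1 base between its arms. The neonatal ileum is also known for enterocytes that take up milk protein and break it down in large lysosomes.

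Promoters of the bile acid genes were searched for a looser form of such a repeat because the repeat is the textbook binding form of FXR, whose transcript is measured below. The looser form left out the outer base of each arm and allowed any base at 1 inner position of each arm. The pattern GGTNANTNACC, which reads the same on both strands, was found in the 250 bases before the start of 2 of the 16 genes with a RefSeq promoter entry (Fabp6 and the bile acid handling list below hold 21 genes). Fgf15, Malrd1, Abcc3, Baat and Slc27a5 had no such entry and were not searched. Of 32851 promoter windows of that length, 72 held it, 0.219%. The Fabp6 window held it 2 times, with first bases 221 and 141 bases before the start, and it was the 1 window of all 32851 with 2 or more. The Slc51b window held it 1 time, 186 bases before the start. Every match in the Fabp6 and Slc51b windows differs from the repeat at a freed inner position. Neither window therefore held the repeat with those positions intact, and the counts hold for the looser pattern only. Both windows are given here from RefSeq on GRCm38.p6, 5′ to 3′ on the strand of the gene, the minus strand in each case, at chr11:43601563-43601812 for Fabp6 and chr9:65422774-65423023 for Slc51b, with the pattern in capitals. A match is a description of letters and no measurement of binding.
Fabp6: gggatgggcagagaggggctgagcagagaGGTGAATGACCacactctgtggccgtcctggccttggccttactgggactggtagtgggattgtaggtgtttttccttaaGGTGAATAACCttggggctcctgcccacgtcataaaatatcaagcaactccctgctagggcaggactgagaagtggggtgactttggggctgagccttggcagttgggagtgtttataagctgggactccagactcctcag
Slc51b: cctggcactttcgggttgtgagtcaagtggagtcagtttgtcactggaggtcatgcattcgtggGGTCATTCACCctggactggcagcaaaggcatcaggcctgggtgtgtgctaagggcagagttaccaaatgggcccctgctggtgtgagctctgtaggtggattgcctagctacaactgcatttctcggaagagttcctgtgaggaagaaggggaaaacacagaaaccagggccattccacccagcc

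Fabp6 itself, which chose the cells, is described here with no test. Summed over the cells of each class it stood at 1679 and 2059.9 CPM in Fabp6-high cells of replicates 1 and 2. The median Fabp6-high cell held 15 and 22 Fabp6 UMIs, and the highest held 138 and 155. The last cells inside the 10% limit had 547 and 988 CPM, and the first cells outside it 545 and 987 CPM, so the limit fell in a continuous range and not in a gap. The 10% held 80.5% and 64.0% of all Fabp6 UMIs of the ileal enterocytes kept. In the whole kept population Fabp6 was at 208 and 361 CPM, and 32.4% (95% exact binomial interval 31.2 to 33.5) and 48.4% (47.2 to 49.5) of cells had at least 1 Fabp6 UMI. The other kept cells, more in replicate 1 than in replicate 2, showed no Fabp6 UMI, at a median depth over all kept cells of 13294 and 11737.5 UMIs. These intervals cover counting error only.

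**Figure D1:**
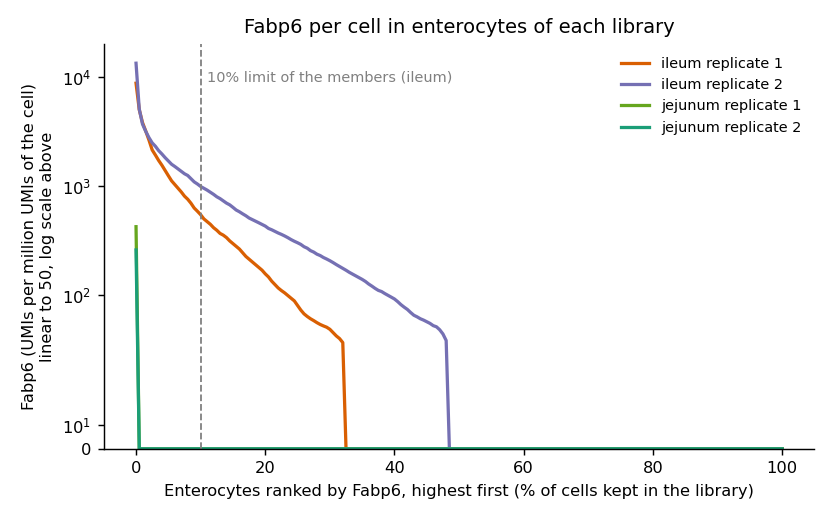
Fabp6 in single enterocytes of the 4 libraries, in CPM of the cell (vertical axis, linear to 50 and logarithmic above), against the rank of the cell in percent of the enterocytes kept, highest first. The dashed line marks the 10% limit. The ileal curves cross it at 547 and 988 CPM and reach 0 at 32.4% and 48.4% of cells, and the jejunal curves reach 0 within the first percent.

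Jejunal enterocytes passed through the same filter nearly lacked Fabp6. A Fabp6 UMI was found in 0.284% (0.178 to 0.430) and 0.239% (0.124 to 0.418) of jejunal cells, with 2 and 1 UMIs at most in a cell and summed levels of 0.431 and 0.289 CPM, at median depths of 5126 and 6044 UMIs. In the ileal libraries, the few cells with 3 or more immune markers, which should lack the gene, had a Fabp6 UMI in 2 of 11 (2.28 to 51.8%, median 8589 UMIs) and 1 of 8 cells (0.316 to 52.7%, median 3481 UMIs), with summed levels of 19.3 and 27.5 CPM. The intervals of these shares hold the enterocyte share of each library, so a single Fabp6 UMI was not read as expression, whereas the summed levels lay far under the limit of 547 and 988 CPM that the members passed. To see how much of the Fabp6 excess came from choosing cells on a noisy count, the UMIs of each cell were split at random into a choosing and a held-out part. Cells chosen on the first part had 1729.9 and 2089 CPM there, and 1670.0 and 1928 CPM in the held-out part. A Fabp6 UMI was present in the held-out part of 89.4% and 97.1% of them. Cells with no Fabp6 UMI in the choosing part had 17.2 and 37.0 CPM in the held-out part.

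Fabp6-high cells had a median of 13052 and 14438 UMIs and 4669 and 4883 genes, and Fabp6-0 cells, which the rule required to be deep, 18193 and 15925 UMIs and 5410 and 5015 genes. Ribosomal protein genes made up a larger share of the RNA of Fabp6-high cells, with a median over cells of 6.27% and 6.13% against 3.92% and 3.43%. The mitochondrial share was close in the classes, with medians of 3.15% and 3.15% against 3.30% and 3.44%. Because depth and ribosomal share moved with the class, each result was also computed with members of at least 10000 UMIs only (395 and 495 cells), with members under 10000 UMIs only (263 and 264 cells), and with each deep member paired with the Fabp6-0 cell of its library nearest in UMIs and ribosomal share. Members under 10000 UMIs were still compared with Fabp6-0 cells of at least 10000 UMIs, so class and depth cannot be told apart there. Pairing brought the median ribosomal share to 6.27% against 6.14% in replicate 1 and left 6.02% against 5.22% in replicate 2. Pairs of the same members with as many Fabp6-0 cells nearest in UMIs alone, where the Fabp6-0 medians stayed at 3.90% and 3.64%, served as a comparison for that pairing; "matched pairs" below means those that include the ribosomal share. No cell barcode was shared between the ileal libraries.

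For tests, UMIs were summed per library and class and the 4 sums compared by edgeR's quasi-likelihood test with the library as a block. Of 15364 genes tested, 5027 (32.7%) had a Benjamini-Hochberg adjusted p under 0.05, 2442 (15.9%) of them higher and 2585 (16.8%) lower in Fabp6-high cells. Values per gene are CPM of the class sums, given for Fabp6-high cells of replicates 1 and 2 and then for Fabp6-0 cells of replicates 1 and 2, and log2 fold changes are given with the SE of the fit over the 2 libraries. The shares of called genes are the background for the gene lists below. In the other settings they were 16.2% higher and 16.2% lower among members of at least 10000 UMIs, 11.5% and 18.4% among members under 10000 UMIs, 4.42% and 5.3% of 12895 genes among the matched pairs, and 17.3% and 16.4% of 12943 genes among the pairs nearest in UMIs alone. Of the 5027 genes, 4998 had the same direction in both replicates. A log2 fold change above 1 was reached by 389 of the higher genes (2.53% of those tested) and a value under -1 by 458 of the lower genes (2.98%), and the median over all genes was 0.00. With upper quartile instead of TMM factors, 2997 genes were higher and 2086 lower, so the share of higher calls went from 48.6% to 59.0%. With class as the only term and no block, 84 genes were called, 22 higher and 62 lower. Without the block and with 1 sum left out, 583 genes were called without the Fabp6-0 sum of replicate 1, 274 without that of replicate 2, and 0 by edgeR's quasi-likelihood test without the Fabp6-high sum of either replicate, where 1898 (replicate 1 left out) and 1820 (replicate 2 left out) genes had an unadjusted p under 0.05 and no other tool was run. The unit of these p-values is the library of a mouse, not the cell. With 2 mice, the spread assumed for a gene was mostly that shared over all genes (median prior degrees of freedom 27.22). A small p-value or SE therefore does not show that the 2 mice agreed on a gene. Reg3g, at -1.77 and 0.33 in replicates 1 and 2, had an edgeR adjusted p of 5.7e-09.

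The bile acid genes called higher with Fabp6 were its exporter pair, the importer, the hormone Fgf15, Malrd1 and 3 nuclear receptors. Of 20 genes listed, 17 had enough counts to be tested. Of these, 8 were higher and 1 lower in Fabp6-high cells, with a median log2 fold change of 0.25, against 15.9% and 16.8% of all genes. Among members of at least 10000 UMIs the counts were 7 and 3 of 17, where 16.2% and 16.2% of all genes were called. They were 4 and 1 of 16 among the matched pairs, where 4.42% and 5.3% were called. The list was drawn up with earlier results of these cells known.

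Fgf15, the enterocyte hormone that represses bile acid synthesis in the liver, stood at 282 and 120.2 CPM in Fabp6-high cells against 114 and 69.6 CPM in Fabp6-0 cells of replicates 1 and 2. Both Fabp6-high levels were above both Fabp6-0 levels, and the log2 fold change 1.02 ± 0.08 had an adjusted p of 5.2e-11 by edgeR's quasi-likelihood test, with 1.25 and 0.75 in the single replicates. At an equal 10000 UMIs per cell, 84.3% and 56.6% of Fabp6-high cells had an Fgf15 UMI against 48.7% and 43.0% of Fabp6-0 cells. These shares cover only the 395 and 495 Fabp6-high cells with at least 10000 UMIs. Fgf15 was also found in both jejunal libraries, at 97.2 and 30.2 CPM in jejunal enterocytes.

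Slc51a was at 827 and 1145 CPM against 409.6 and 865 CPM (log2 fold change 0.66 ± 0.08, edgeR adjusted p = 1.2e-07), and the higher level in each mouse was that of the Fabp6-high cells, although Fabp6-high cells of replicate 1 stayed below Fabp6-0 cells of replicate 2. Slc51a was not called with DESeq2. Its partner Slc51b was at 96.3 and 123 CPM against 54.7 and 86.9 CPM (0.60 ± 0.08, adjusted p = 2.7e-07), with groups that did not overlap. The promoter pattern given above occurred 1 time in the Slc51b window and 0 times in the Slc51a window, and a relation to these levels was not tested. Jejunal enterocytes had the exporter at levels like these, 923 and 774 CPM for Slc51a and 161 and 219 CPM for Slc51b.

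The apical importer Slc10a2 was low in both classes, at 15.04 and 15.04 CPM in Fabp6-high cells against 10.4 and 12.5 CPM in Fabp6-0 cells (0.34 ± 0.13, edgeR adjusted p = 0.048). This call was the weakest of the 8. It was lost, among other settings, with DESeq2, among members of at least 10000 UMIs, among members under 10000 UMIs and among the matched pairs, with log2 fold changes from 0.20 to 0.70 over the 16 alternatives that kept both replicates. At 10000 UMIs per cell, 10.6% and 11.7% of the Fabp6-high cells of that depth had a Slc10a2 UMI against 7.51% and 9.53% of Fabp6-0 cells. In jejunal enterocytes the importer was at 2.88 and 4.50 CPM.

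The bile acid sensor Nr1h4 was at 329.6 and 362 CPM in Fabp6-high cells against 243 and 263 CPM in Fabp6-0 cells (0.40 ± 0.06, edgeR adjusted p = 8.6e-06), with no overlap between the classes. Its excess over Fabp6-0 cells fell to 0.052 on the log2 scale and was no longer called among the pairs matched on ribosomal share. Rxra, a retinoid X receptor and partner of FXR, was at 63.2 and 81.5 CPM against 58.5 and 65.99 CPM and not called. Nr0b2 (SHP), a corepressor induced by FXR, was low and not called, at 7.95 and 11.8 CPM against 5.92 and 11.5 CPM, and was called higher, by 0.64, among the matched pairs. Malrd1, a protein known to affect Fgf15 output, was at 64.5 and 83.7 CPM against 43.6 and 64.4 CPM (0.42 ± 0.08, edgeR adjusted p = 9.6e-05), but its sign turned to -0.24 among the matched pairs, where it was the 1 gene of the list called lower.

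The xenobiotic receptors Nr1i3 (CAR) and Nr1i2 (PXR), which also respond to bile acids or their metabolites, were higher by 0.44 ± 0.08 and 0.25 ± 0.07 (edgeR adjusted p = 5.7e-05 and 0.0094), and neither was called among the matched pairs, nor Nr1i2 with DESeq2. The vitamin D receptor Vdr was the lower gene of the list, at 43.3 and 37.9 CPM in Fabp6-high cells against 60.7 and 51.6 CPM in Fabp6-0 cells (-0.52 ± 0.08, adjusted p = 1.5e-05). Vdr was at -0.18 and not called among the matched pairs. Abcc2, an apical exporter of conjugated compounds, was abundant at 1139.8 and 879.8 CPM against 1184 and 899.9 CPM and not called. Nr5a2, a nuclear receptor of bile acid synthesis genes, was at 90.2 and 98.4 CPM against 76.7 and 88.6 CPM and not called.

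The remaining genes of the list were near the limit of detection. Abcc3, Abcb11, Baat and Cyp27a1 lay between 0.401 and 2.61 CPM in every class and replicate and were not called. Slc27a5 had 3 and 4 UMIs in all Fabp6-high cells and Cyp3a11 1 and 0, and neither was tested. Gpbar1, the membrane receptor for bile acids, had 0 UMIs in all kept cells.

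**Figure D2:**
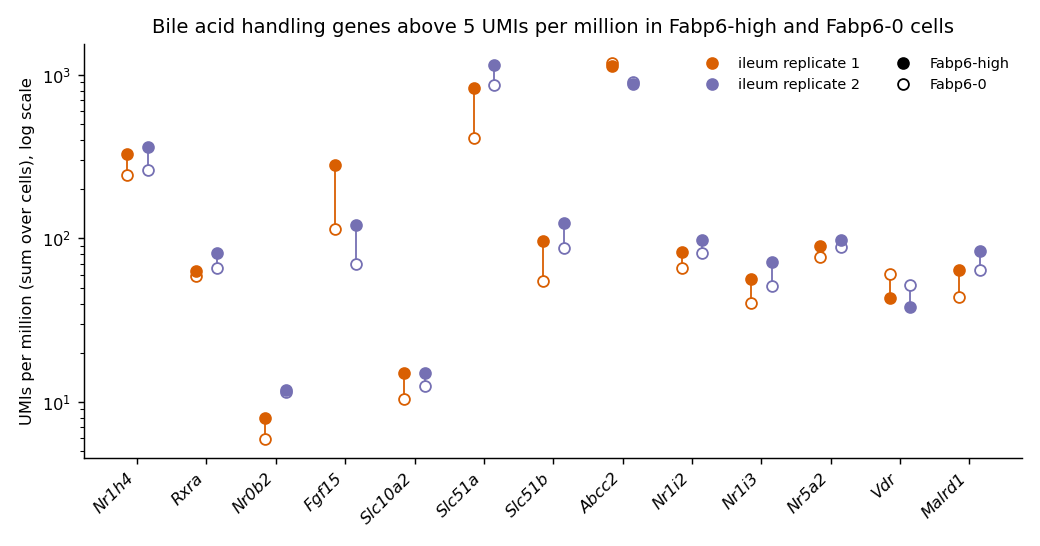
Levels of the 13 bile acid handling genes above 5 CPM, in CPM summed over cells (vertical axis, log scale), in Fabp6-high (filled) and Fabp6-0 cells (open) of ileum replicates 1 and 2, joined by a line within each replicate. Fgf15 shows the widest gap in replicate 1, 282 against 114 CPM, Abcc2 shows almost none, and Vdr is the gene with both filled points below the open ones by more than the point size.

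The 12 genes with the highest fold change were taken among called genes with at least 20 CPM on average in the higher class and the same direction in both replicates. Defb37, a beta-defensin gene, led with 43.5 and 26.1 CPM in Fabp6-high cells against 5.62 and 2.82 CPM in Fabp6-0 cells, a 7.99-fold excess (log2 fold change 2.998 ± 0.13, edgeR adjusted p = 8.8e-17). The paired groups did not overlap, and jejunal enterocytes had 1.65 and 0.698 CPM. Fads2, the delta-6 desaturase of polyunsaturated fatty acid synthesis, followed at 184 and 170.1 CPM against 36.6 and 32.5 CPM (2.31 ± 0.07, edgeR adjusted p = 8.4e-20). The stearoyl-CoA desaturase gene Scd2 was at 714 and 400.2 CPM against 236 and 48.5 CPM, with log2 fold changes of 1.53 and 3.01 in the replicates, the least even of the 12 in the plot of fold changes. Scd2 was nearly absent from the jejunum, at 0.655 and 0.217 CPM.

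The other 9 had log2 fold changes between 1.95 and 2.29. Ehf, an ETS-family transcription factor of epithelia, was at 59.8 and 42.2 CPM against 12.4 and 7.84 CPM. Mt2, a metal-binding metallothionein, was at 36.2 and 429 CPM against 8.52 and 98.8 CPM, so the mice differed more than the classes: Fabp6-high cells of replicate 1 lay below Fabp6-0 cells of replicate 2. Reg4, a secreted lectin-like protein, was at 183 and 134 CPM against 41.3 and 33.9 CPM, and Ccl25, the chemokine that draws lymphocytes to the small intestine, at 169 and 207 CPM against 36.5 and 59.4 CPM. In both of these genes each Fabp6-high level was above each Fabp6-0 level.

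Cth, which makes cysteine from cystathionine, was at 21.1 and 32.1 CPM against 4.38 and 7.33 CPM, and the glycolytic enzyme gene Pgam2 at 22.7 and 33.5 CPM against 4.96 and 8.42 CPM. The remaining genes were Prxl2a, Reep1 and Prss32. All 12 were also higher among the matched pairs and called there, with smaller log2 fold changes, from 0.45 (Pgam2) to 1.46 (Scd2).

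**Figure D3:**
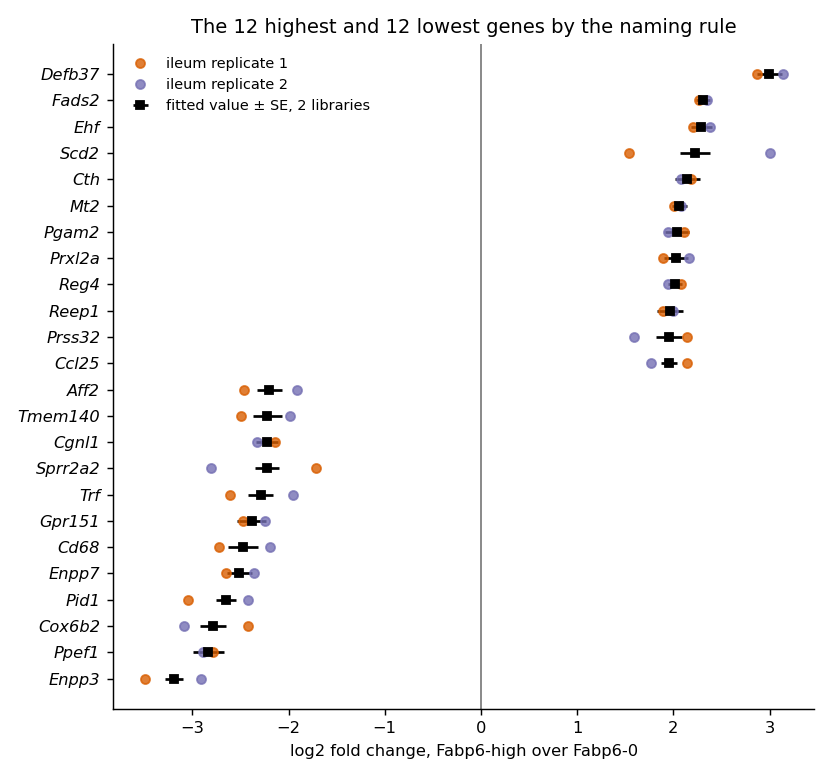
Log2 fold change of Fabp6-high over Fabp6-0 cells (horizontal axis) for the 12 highest and 12 lowest genes. Coloured circles are ileum replicates 1 and 2, black squares the fitted value with its SE. All 24 genes lie on the same side of 0 in both replicates, and Scd2 (1.53 and 3.01) and Sprr2a2 (-1.71 and -2.80) show the widest gaps between them.

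At the other end, Enpp3, an ectoenzyme that hydrolyses extracellular nucleotides, was at 33.7 and 44.6 CPM in Fabp6-high cells against 365 and 328 CPM in Fabp6-0 cells, 9.10-fold lower (log2 fold change -3.19 ± 0.09, edgeR adjusted p = 1.6e-20). Enpp7, the alkaline sphingomyelinase of the brush border, was at 6.97 and 7.72 CPM against 42.4 and 39.1 CPM (-2.51 ± 0.13, adjusted p = 3e-15). Cd68, a lysosomal membrane glycoprotein best known from macrophages, was at 4.52 and 4.81 CPM against 29.1 and 21.8 CPM. In these 3 genes both Fabp6-high levels lay below both Fabp6-0 levels. The immune markers were near 0 in both classes (summed levels of 3.79 and 3.51 CPM in Fabp6-high and 4.47 and 3.25 CPM in Fabp6-0 cells, with Lyz2 at 0 UMIs in all 4 sums).

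Pid1, a protein that modulates insulin signalling, was at 11.1 and 31.9 CPM against 88.3 and 167 CPM, and the iron carrier gene Trf at 9.05 and 9.13 CPM against 53.1 and 34.8 CPM. Sprr2a2, a small proline-rich protein gene with near-identical copies to which its reads may belong, was at 617 and 114 CPM against 1935 and 776 CPM. Among the matched pairs its log2 fold change was 0.12. The other genes were Ppef1, Cox6b2, Gpr151, Cgnl1, Tmem140 and Aff2, with log2 fold changes from -2.20 to -2.83. Sprr2a2 and Trf were not called among the matched pairs, and the other 10 were called lower there.

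Genes of lysosomal enzymes and membrane proteins were lower in Fabp6-high cells. Of 29 tested, 28 were lower and 0 higher, with a median log2 fold change of -0.53, and 0 of the 29 had a positive estimate. Among the matched pairs 25 were lower and 0 higher, with a median of -0.23. Lgmn, the cysteine protease legumain, was at 1211 and 1084 CPM in Fabp6-high cells against 5260.4 and 4494 CPM in Fabp6-0 cells of replicates 1 and 2 (log2 fold change -2.14 ± 0.05, edgeR adjusted p = 1.8e-22). The cathepsin Ctsl was at 449.6 and 816 CPM against 2085 and 2863 CPM (-2.06 ± 0.07, adjusted p = 2.7e-19), and both genes showed a clear gap between the classes in each mouse. Smaller differences were seen for Ctsb, at 1315 and 1522 CPM against 2587 and 3021 CPM (-1.03 ± 0.05), and for Naglu, which degrades heparan sulphate, at 42.2 and 47.8 CPM against 86.7 and 92.6 CPM (-1.04 ± 0.08). Lgmn and Ctsl nevertheless remained among the abundant transcripts of Fabp6-high cells.

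Apical protein uptake genes went the same way with more exceptions, 8 lower and 1 higher of 14 tested (median -0.24). The endocytic receptor Lrp2 (megalin) was at 14.1 and 12.1 CPM against 62.4 and 43.2 CPM (-2.05 ± 0.11, edgeR adjusted p = 1.1e-14). Its partner receptor Cubn (cubilin) differed less, at 352 and 357 CPM against 465 and 460.1 CPM (-0.43 ± 0.06, adjusted p = 1.9e-06). The neonatal Fc receptor Fcgrt, which carries milk IgG across the epithelium, was at 441 and 563 CPM against 1159 and 1398 CPM (-1.40 ± 0.06), against 4179 and 3981 CPM in jejunal enterocytes. Pdzk1, a brush border scaffold, was at 190.5 and 196 CPM against 289 and 314 CPM (-0.69 ± 0.07). Among members of at least 10000 UMIs the list gave 7 lower and 3 higher genes (16.2% and 16.2% of all genes there), and among the matched pairs 5 and 0 (5.3% and 4.42% of all genes).

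**Figure D4:**
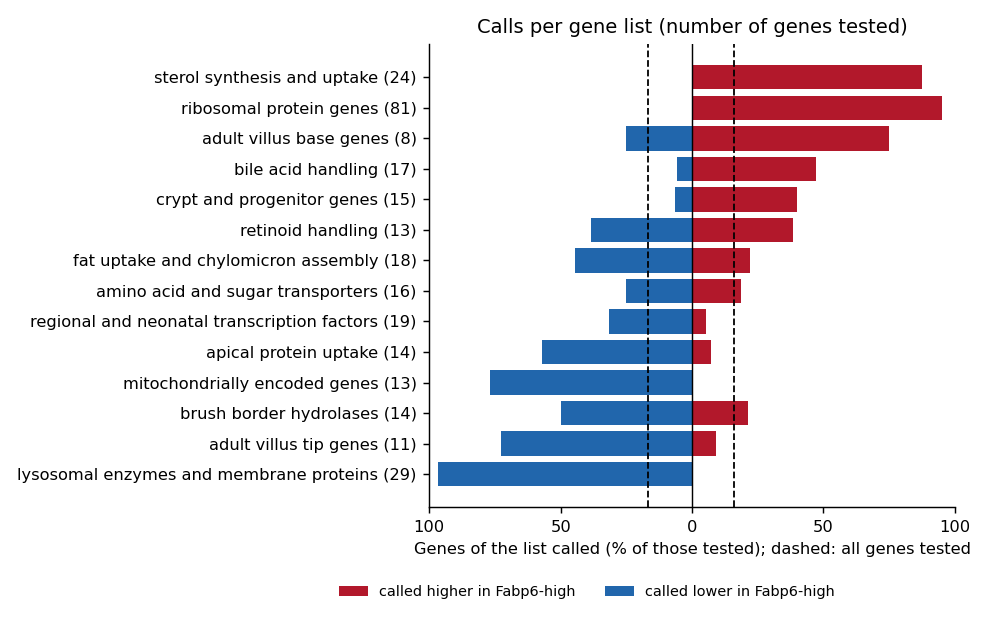
Share of the tested genes of 14 lists called higher (red, to the right) or lower (blue, to the left) in Fabp6-high cells, in percent, with the number tested in brackets. Dashed lines are the shares over all 15364 genes, 15.9% higher and 16.8% lower. The lysosomal list reaches 28 of 29 to the left, and the sterol list 21 of 24 and the ribosomal list 77 of 81 to the right.

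Sterol synthesis and uptake genes were higher as a block, 21 of 24 tested and 0 lower, with a median log2 fold change of 0.63 and all 24 estimates above 0. Mvk, mevalonate kinase, was at 20.5 and 21.1 CPM in Fabp6-high cells against 7.96 and 6.21 CPM in Fabp6-0 cells (log2 fold change 1.504 ± 0.14, edgeR adjusted p = 5.6e-10). The later steps Mvd, Fdps and Lss were at 64.9 and 59.9 CPM against 28.6 and 22.6 CPM, 327 and 298 CPM against 191 and 104 CPM and 59.2 and 53.2 CPM against 28.7 and 18.8 CPM, with log2 fold changes of 1.24 ± 0.09, 1.09 ± 0.10 and 1.21 ± 0.10. Every Fabp6-high level of these 4 genes was above every Fabp6-0 level. The median of the list was 0.39 in replicate 1 and 0.91 in replicate 2, and 20 of 24 were called higher among the matched pairs. Among members under 10000 UMIs, 15 were higher and 1 lower.

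Fat uptake and chylomicron genes were split over all members, 4 higher and 8 lower of 18 tested (median -0.033), against 15.9% and 16.8% of all genes. The counts were 4 and 8 among members of at least 10000 UMIs (16.2% and 16.2% of all genes). They were 1 and 8 among members under 10000 UMIs (11.5% and 18.4%), and 0 and 4 among the matched pairs (4.42% and 5.3%). Apoc2, an apolipoprotein that activates lipoprotein lipase, was at 192 and 332 CPM against 844 and 1122 CPM (-1.99 ± 0.07, edgeR adjusted p = 2e-18), and Apob, the structural protein of chylomicrons, at 778 and 939.8 CPM against 1402 and 1689 CPM (-0.90 ± 0.06). The fatty acid receptor Cd36 was scarce in either class, at 1.71 and 1.504 CPM against 3.32 and 2.82 CPM, against 152 and 168 CPM in the jejunum, and its log2 fold change was -0.98 overall and 0.40 among members under 10000 UMIs. Scarb1 was called lower at 3.06 and 2.41 CPM against 7.21 and 2.96 CPM. The apolipoproteins Apoa1 and Apoa4, used by the cell filter and described with no test, were at 3977 and 4457 CPM against 6456 and 7278 CPM and at 3102 and 4102 CPM against 6643 and 7525 CPM.

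Among Fabp6's own family, the 2 other enterocyte carriers also served the filter and carry no test. Fabp1, the liver-type fatty acid binding protein, was at 39.98 and 533 CPM in Fabp6-high cells against 156 and 1379.8 CPM in Fabp6-0 cells, so it was lower where Fabp6 was high in each mouse, while the mice differed more. Fabp2, the intestinal type, was at 1273 and 2138 CPM against 1218 and 2354 CPM, with the classes overlapping. Of 13 related lipid binding genes only 4 could be tested, and the retinol carrier Rbp2 was the 1 called, at 277 and 415 CPM against 826 and 1000.2 CPM (-1.47 ± 0.07, edgeR adjusted p = 3.3e-16). Fabp5 and Fabp12 were at most 5.26 CPM and not called.

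The retinoid handling genes were split over all members, 5 higher and 5 lower of 13 (median 0.10), against 15.9% and 16.8% of all genes. The counts were 3 and 5 among members of at least 10000 UMIs (16.2% and 16.2% of all genes). They were 2 and 5 among members under 10000 UMIs (11.5% and 18.4%), and 1 and 4 of 12 among the matched pairs (4.42% and 5.3%). Aldh1a1, which makes retinoic acid, was at 7.70 and 31.7 CPM in Fabp6-high cells against 2.01 and 7.66 CPM in Fabp6-0 cells (log2 fold change 1.96 ± 0.15, edgeR adjusted p = 2.1e-11), a range over which the mice differed as much as the classes. The retinol dehydrogenase gene Rdh7 was called higher at only 1.47 and 3.71 CPM against 0.258 and 0.975 CPM. Rarres1, a retinoic acid-responsive gene, was lower at 12.6 and 5.01 CPM against 43.1 and 13.98 CPM (-1.72 ± 0.14). Rbp2, described above, belongs to this list too.

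Of 14 brush border hydrolases tested, 7 were lower and 3 higher (median -0.33), with Mgam as the most abundant of the higher genes. Mgam, the maltase-glucoamylase that digests starch products, was at 1136 and 814 CPM in Fabp6-high cells against 409 and 278 CPM in Fabp6-0 cells (log2 fold change 1.46 ± 0.06, edgeR adjusted p = 2.1e-17), above its 199.7 and 168 CPM in the jejunum. Sis, the sucrase-isomaltase of the weaned intestine, was called higher but near 1 CPM, at 1.10 and 1.00 CPM against 0.304 and 0.325 CPM. The dipeptidase gene Ace was lower at 149.6 and 219 CPM against 598 and 641 CPM (-1.82 ± 0.08, adjusted p = 6.8e-17), as was the scarce Nt5e (-1.34 ± 0.31). Lactase, Lct, and alkaline phosphatase, Alpi, again filter genes with no test, were at 187 and 509 CPM against 410.0 and 1052 CPM and 708 and 789 CPM against 1230.1 and 1214 CPM.

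Amino acid and sugar transporters gave 3 higher and 4 lower of 16 (median -0.081), near the 15.9% and 16.8% of all genes. The counts were 5 higher and 3 lower among members of at least 10000 UMIs (16.2% and 16.2% of all genes). They were 3 higher and 9 lower among members under 10000 UMIs (11.5% and 18.4%), and 2 and 2 among the matched pairs (4.42% and 5.3%). The glutamate transporter Slc1a1 was at 37.2 and 35.3 CPM against 16.2 and 12.4 CPM (1.30 ± 0.11, edgeR adjusted p = 1.3e-10) and the proline transporter Slc6a20a at 47.9 and 52.7 CPM against 23.2 and 24.2 CPM (1.03 ± 0.09). The basolateral glucose transporter Slc2a2 was lower at 35.7 and 98.9 CPM against 89.04 and 194 CPM (-1.16 ± 0.08), and so was the peptide transporter Slc15a1 at 17.97 and 25.97 CPM against 31.8 and 42.7 CPM (-0.81 ± 0.10). In jejunal enterocytes Slc2a2 was at 219 and 277 CPM and Slc15a1 at 71.1 and 75.3 CPM, above both ileal classes.

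Genes that mark the base of the adult villus were mostly higher and those of its tip mostly lower. Position along the villus was not measured in these cells, and the lists come from adult tissue. Of 8 villus base genes tested, 6 were higher and 2 lower (median 1.18). Lypd8, a secreted protein that keeps bacteria off the epithelium, was at 1070.3 and 893 CPM in Fabp6-high cells against 441 and 349 CPM in Fabp6-0 cells (log2 fold change 1.27 ± 0.06, edgeR adjusted p = 4.2e-16), and Dmbt1, a mucosal scavenger protein, at 40.95 and 20.3 CPM against 18.4 and 6.61 CPM (1.28 ± 0.12). Ccl25, named above, belongs to the same list. Reg3g, an antibacterial lectin with a close copy in Reg3b, was called lower at 46.1 and 2.91 CPM against 151 and 2.24 CPM, and only in replicate 1 was the Fabp6-high level below the Fabp6-0 level.

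Of 11 villus tip genes tested, 8 were lower and 1 higher (median -0.51). Klf4, a transcription factor of differentiated epithelium, was at 153 and 127 CPM against 238 and 213 CPM (-0.74 ± 0.07, edgeR adjusted p = 4.4e-10), and the nuclear noncoding RNA Neat1 at 111 and 79.9 CPM against 176 and 147 CPM (-0.82 ± 0.07). Krt20, a keratin of mature enterocytes, went the other way, at 17.4 and 15.04 CPM against 3.14 and 3.79 CPM (2.18 ± 0.17, adjusted p = 2.3e-11). Among the matched pairs the tip list gave 3 lower and 1 higher of 11 (median -0.11) and the base list 5 higher and 2 lower of 8 (median 0.25), where 5.3% of all genes were lower and 4.42% higher. Klf4 was at -0.14 there and not called, and Lypd8 at 0.14 and still called.

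Crypt and progenitor genes gave 6 higher and 1 lower of 15 tested (median 0.40). Myc, a growth-promoting transcription factor, was at 34.4 and 15.5 CPM against 9.34 and 5.78 CPM (1.64 ± 0.13, edgeR adjusted p = 4.8e-11), Prom1 at 7.95 and 4.81 CPM against 2.06 and 1.34 CPM (1.85 ± 0.25) and the ephrin receptor Ephb2 at 52.4 and 55.8 CPM against 27.7 and 37.6 CPM (0.69 ± 0.09). Axin2, a target of Wnt signalling, was the lower gene, at 12.8 and 13.4 CPM against 35.7 and 36.5 CPM (-1.51 ± 0.12). Among the matched pairs 2 genes of 14 were higher and 1 lower, where 4.42% and 5.3% of all genes were called. Myc (0.50) and Prom1 (1.16) stayed higher and Axin2 (-0.80) lower, while Ephb2 stood at -0.015 and was not called. Cells with 2 or more of the 5 cycling genes had been removed by the filter, and the cycling genes were at most 8.52 CPM in either class.

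Transcription factors of the region and of the neonatal intestine gave 1 higher and 6 lower of 19 tested (median -0.080). Klf4, described above among the villus tip genes, was 1 of the 6. Gata6, which acts in gut endoderm, and the repressor Bcl6 were lower by less, -0.22 ± 0.07 and -0.26 ± 0.09, and neither was called among the matched pairs, where they stood at -0.075 and 0.064. Over the 16 alternatives that kept both replicates, the call was lost in 4 for Gata6 and in 12 for Bcl6.

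Of 10 genes listed for the ileum, by the study or from these samples, 9 were tested, and 4 were higher and 5 lower (median -0.49). That list is not independent of these libraries. Scd2 was among the higher genes. Il18r1, a cytokine receptor chain, was at 12.5 and 6.42 CPM against 47.4 and 20.9 CPM (-1.89 ± 0.13, edgeR adjusted p = 1e-12), and the noncoding RNA Meg3 at 60.8 and 16.2 CPM against 209.9 and 60.5 CPM (-1.88 ± 0.08), although both were nearly absent from the jejunum (at most 0.842 and 2.43 CPM). The jejunal list gave 0 higher and 3 lower of 7 tested (median -0.19), among them Paqr9 at 2.69 and 11.4 CPM against 11.4 and 37.3 CPM, far under the 319 and 452 CPM of jejunal enterocytes. Fam13a, another gene of the jejunum, was at 5.26 and 12.1 CPM against 4.07 and 12.3 CPM and not called.

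Genes that led other enterocyte groups of these samples were lower, 7 of 9 tested with 1 higher (median -1.59), against 16.8% and 15.9% of all genes. They were chosen from the same cells. Bglap3, an osteocalcin-like gene whose reads may come from its near-identical neighbours, was at 27.02 and 33.8 CPM in Fabp6-high cells against 119 and 97.5 CPM in Fabp6-0 cells (log2 fold change -1.87 ± 0.10, edgeR adjusted p = 1e-14). The adenosine receptor Adora2b was at 1.22 and 4.31 CPM against 8.29 and 20.4 CPM and the Wnt inhibitor Apcdd1 at 2.45 and 17.05 CPM against 12.9 and 55.8 CPM, with log2 fold changes of -2.42 ± 0.19 and -1.90 ± 0.14. Among the matched pairs 4 of these 9 genes were called lower and 0 higher, against 5.3% and 4.42% of all genes. Immediate early and heat shock genes, which respond to tissue dissociation, gave 2 higher and 6 lower of 14 (median -0.082), against 15.9% and 16.8% of all genes. The called Hspa1a was at 4.28 and 4.61 CPM against 11.8 and 12.9 CPM. Among the matched pairs 0 of these 14 were higher and 3 lower (4.42% and 5.3% of all genes).

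Ribosomal protein genes were higher in 77 of 81 tested and lower in 0 (median 0.58). Rps4x, for example, was at 994 and 939 CPM in Fabp6-high cells against 453 and 435 CPM in Fabp6-0 cells (log2 fold change 1.07 ± 0.06, edgeR adjusted p = 1e-14), and Rpl3, Rpl10a and Rpl36a had log2 fold changes from 0.97 to 0.998. Reads of these genes can also fit their processed pseudogenes. Matching on the ribosomal share took this difference down to a median of 0.089, with 24 higher and 3 lower. Of 12895 genes tested among these pairs, 1253 were called, 570 higher and 683 lower, and 1159 of these had also been called over all members. Pairs nearest in UMIs alone, with the same members and as many Fabp6-0 cells, gave 4367 called genes of 12943, and 78 of 81 ribosomal protein genes were higher there (median 0.55). Of 96 named genes that had been called and could be tested among the matched pairs, 71 were called in the same direction, and the median gene kept 0.415 of its log2 fold change. For the pairs nearest in UMIs alone these values were 90 of 97 and 0.961. Cd36, Scarb1, Nt5e, Rdh7 and Hspa1a, each given here as called, were not called among the matched pairs. Mitochondrially encoded genes were lower in 10 of 13 and higher in 0 (median -0.29), led by mt-Nd4l at 61.6 and 49.8 CPM against 86.7 and 77.8 CPM. The direction changed with depth: 13 were lower among members of at least 10000 UMIs and 6 higher and 1 lower among those under 10000 UMIs.

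Markers of other cell types were low in both classes. The goblet list summed to 114 and 103 CPM in Fabp6-high and 201.2 and 188 CPM in Fabp6-0 cells, with 2 higher and 1 lower of 7 tested, the lower being Fcgbp at 49.9 and 56.4 CPM against 147 and 139 CPM. Members under 10000 UMIs had goblet sums of 229 and 153 CPM, with 5 higher and 1 lower of 6 tested, and the deeper ones 90.8 and 94.7 CPM, with 2 higher and 2 lower of 7. The enteroendocrine list summed to 36.6 and 51.4 against 46.9 and 47.6 CPM, and 4 of 7 were called higher and 1 lower. These calls changed with depth, and members under 10000 UMIs were compared with deeper Fabp6-0 cells. Kept cells in neither class, with medians of 6450.5 and 8306 UMIs, had enteroendocrine sums of 114 and 96.9 CPM. Their goblet sums were 241 and 177 CPM. In members under 10000 UMIs the enteroendocrine list summed to 92.5 and 196 CPM. Of 8 tested there, 6 were called higher and 0 lower (median log2 fold change 3.19), against 11.5% and 18.4% of all genes. In the deeper members the list summed to 25.3 and 28.5 CPM, and 0 were higher and 1 lower. Chgb, a granule protein, was at 8.44 and 3.81 CPM against 2.74 and 2.06 CPM and turned to a log2 fold change of -0.58 among deeper members. Pyy, a gut hormone, was at 1.59 and 10.7 CPM against 1.62 and 2.28 CPM and turned to -0.23 there.

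With all members, none of the 3 tuft, 4 Paneth and 1 immune markers tested was called by edgeR or DESeq2, with 1 (Defa24) at an unadjusted p under 0.05, where the sums were 7.34 and 4.31 against 6.04 and 4.12 CPM for tuft, 19.9 and 15.9 against 14.2 and 12.7 CPM for Paneth cells. Among members under 10000 UMIs, 1 of 4 tuft and 2 of 3 Paneth markers tested were called higher by edgeR, with sums of 16.8 and 10.9 CPM for tuft and 46.6 and 18.2 CPM for Paneth cells. Kept cells in neither class had sums of 7.73 and 4.69 CPM for tuft and 24.7 and 17.2 CPM for Paneth cells. The stromal and endothelial list summed to 39.9 and 44.6 against 35.2 and 38.3 CPM, with 1 of 4 lower (Col1a2, at most 2.01 CPM, with 8 and 1 UMIs in Fabp6-high cells) and Col1a1 at 0 UMIs in Fabp6-high cells of both replicates. Red blood cell genes summed to at most 0.489 CPM and could not be tested. With cells holding 2 or more goblet, enteroendocrine or immune markers left out, 4189 genes were called, 4018 of them shared with the 5027.

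Levels of many named genes changed over several steps of Fabp6. Ileal cells of at least 10000 UMIs were thinned to 10000 UMIs each and split by their Fabp6 UMIs into bins of 0, 1 to 2, 3 to 5, 6 to 10 and over 10, which held 2678, 611, 220, 170 and 217 cells in replicate 1 and 2023, 959, 489, 383 and 467 cells in replicate 2. Over these bins Fgf15 went from 116 to 160.4, 214, 258 and 308 CPM in replicate 1. In replicate 2 it went from 73.6 to 79.5, 84.3, 97.9 and 118 CPM, a shallower rise from a lower start. Slc51a also rose at every step in both replicates, from 419 to 882 and from 893 to 1121 CPM. These were the 2 of 19 bile acid genes with a UMI that did so.

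Mgam rose at every step from 438 to 1160.4 and from 295 to 819 CPM. Lgmn fell at every step, from 5081 to 984 and from 4330.4 to 1030.2 CPM, with much of the drop already between the bins of 0 and 3 to 5 UMIs, at 1730.5 and 2015 CPM in the latter. Ctsl fell from 1999 to 374 and from 2795 to 791 CPM, and Rbp2 from 787 to 229 and from 985 to 398 CPM. Of the 12 highest genes 8 rose at every step in both replicates, and of the 12 lowest 6 fell. The median ribosomal share rose with the bins as well, from 4.01% to 6.62% and from 3.51% to 6.05%, while the median number of genes stayed between 3986 and 4092.5. The values along the bins come from the cells that chose the members and are a description with no test.

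**Figure D5:**
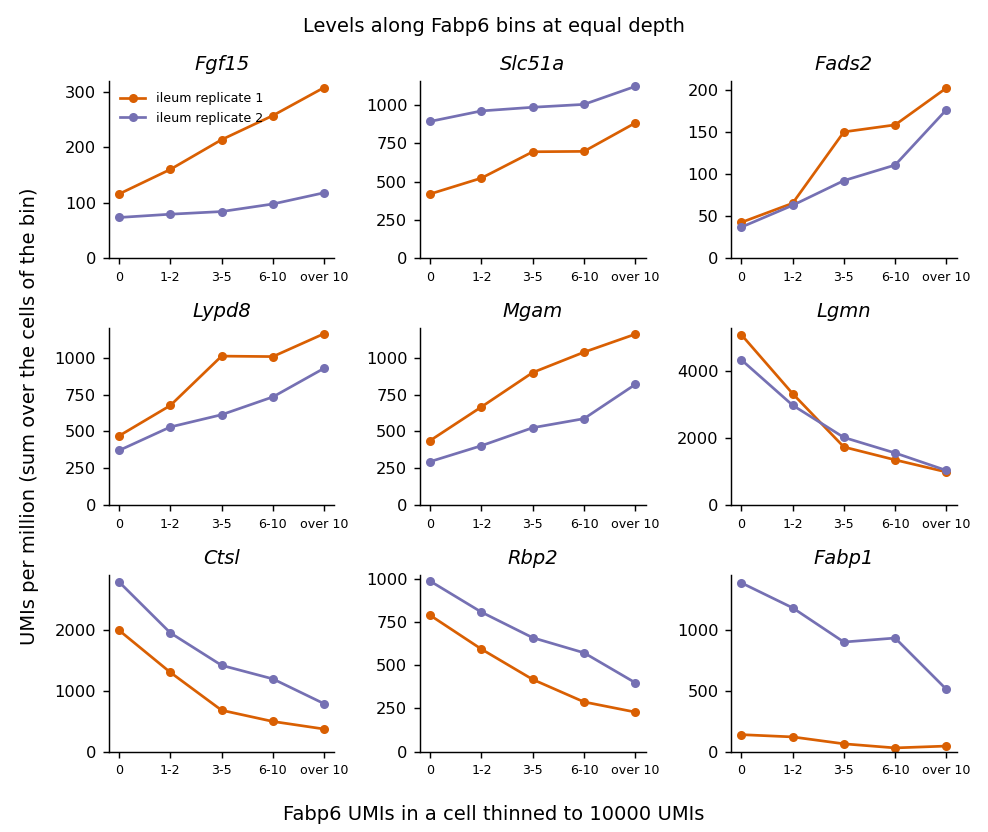
Levels of 9 genes in CPM (vertical axes, from 0) in bins of cells by Fabp6 UMIs after thinning every cell to 10000 UMIs (horizontal axes), for ileum replicates 1 and 2. Fgf15, Slc51a, Fads2 and Mgam rise at each step in both replicates, Lypd8 rises with 1 step level in replicate 1, and Lgmn, Ctsl and Rbp2 fall at each step. Fabp1 falls overall from 141 to 47.01 and from 1393 to 515 CPM, with reversals between neighbouring bins.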

How the data were processed

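Per the labels and the study's methods, epithelium was released with EDTA and dispase, captured with PIPseq and counted by the authors with PIPseeker at setting 3; the labels name the build GRCm39, and the annotation is not given in the sources used here. The deposited matrices hold raw UMI counts per gene and called cell, not normalized, for 32227 genes. The 2 ileal libraries had 8962 and 9700 called cells. Reads of near-identical genes (Bglap, Reg3, Sprr2a and defensin genes, ribosomal protein pseudogenes) can be misassigned. Doublets were not removed.

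Cells were filtered and classed as stated in the report. The UMIs of each class were added up within a library and compared with edgeR 4.0.16 (R 4.3.3; TMM factors, filterByExpr, library as a block, quasi-likelihood test, Benjamini-Hochberg threshold 0.05), leaving out Fabp6 and the 11 filter genes. Log2 fold changes come from that fit, and the SE is the absolute log2 fold change over the square root of its F statistic. Log2 fold changes of single replicates are differences of log CPM with TMM factors (prior count 2). CPM are plain sums. The block was used because both classes came from the same mouse; deviations of the classes of a library from the class means correlated at 0.608 over 15364 genes. Named were all bile acid genes, the 12 highest and 12 lowest called genes (at least 20 CPM in the higher class, same direction in both libraries, no gene-model name) and up to 4 genes of each of 26 lists. Some list members are counted but not reported here. Alternatives were 17 planned settings (among them DESeq2 1.42.0) and 3 chosen after seeing the data, both kinds of pairs and the members under 10000 UMIs. Members, rule and lists were chosen with earlier results of these data known. The fitting script was tested on simulated counts.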

Additional observations from a re-analysis of the deposited data

Results flagged for a closer look

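The difference between Fabp6-high and Fabp6-0 cells went in opposite directions in the 2 mice for Reg3g, with log2 fold changes of -1.77 in replicate 1 and 0.33 in replicate 2, at 46.1 against 151 CPM and 2.91 against 2.24 CPM. The same was seen for Pyy, with -0.083 in replicate 1 and 2.16 in replicate 2, at 1.59 against 1.62 CPM and 10.7 against 2.28 CPM. In both genes the difference between the mice was not tested, since each mouse gave 1 sum per class.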

How the results depend on the processing

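Over the 16 settings that kept both replicates, 92 of the 100 named genes called kept their sign in each. Without the replicate block, which pairs the classes by mouse, 84 genes were called (22 higher, 62 lower), with DESeq2 2467 (1171 and 1296) and among pairs matched on ribosomal share 1253 (570 and 683). Leaving out 1 of the 4 sums gave 0 to 583 called, 0 to 244 higher and 0 to 339 lower; the remaining sum of that class was then assumed to vary like the other class. Signs turned for Pyy, Chgb and Chga with members of at least 10000 UMIs (-0.23, -0.58 and -0.80) and after thinning (-0.10, -0.72 and -0.34), for Pyy with pairs nearest in UMIs alone (-0.37), for Tff3 without cells holding other-type markers (1.00), and for Cd36 (0.40) and Tff3 (1.19) with members under 10000 UMIs. Matching turned Malrd1 (-0.24), Sprr2a2 (0.12), Ephb2 (-0.015), Bcl6 (0.064) and Pyy (-0.27). Reg3g turned without replicate 1 (0.33) and Pyy without replicate 2 (-0.083). With 1 sum left out, Reg3g ranged from -4.71 to 3.33 (without the Fabp6-high and the Fabp6-0 sum of replicate 1), Mt2 from -0.69 to 4.75 (without the Fabp6-high and the Fabp6-0 sum of replicate 2) and Pyy from -0.38 to 2.45 (without the Fabp6-high sum of replicates 2 and 1). In each case the cause was not tested. Cyp3a11, with 1 UMI in all Fabp6-high cells, could not be tested at this depth.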
